A study of Mus musculus with 6 samples.

Results

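The data describe the genes of the ciliary and flagellar axoneme in single-cell RNA sequencing of the mouse testis. The genes were taken by symbol, as every gene whose name begins with Cfap and a digit, Dnah and a digit, or Rsph, with no use of measured values. The rule gave 57 of the 32285 genes in the count tables, namely 33 Cfap (cilia and flagella associated protein), 16 Dnah (dynein axonemal heavy chain) and 8 Rsph (radial spoke head) genes. All 57 matched the GENCODE M21 annotation of GRCm38 by gene identifier. Of them 56 are protein-coding and 1, Dnah2os, is an antisense RNA at chr11:69448548-69453676 inside the span of Dnah2.

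Testes came from wild-type C57BL/6 mice (C57BL/6N in the study's methods) aged 8 weeks that had eaten a low-fat diet (LFD) or a high-fat diet (HFD) for 2 weeks, with 3 libraries per diet label and 6 in all. No allele, transgene or further agent was used in either group, and each library came from a suspension of the whole testis with no sort. For all 6 libraries the diet in the name of the deposited table is the reverse of the one in the sample label, and the numbers of cells that the study lists by sample go with the table names. Groups here follow the labels, so libraries are called labelled HFD or labelled LFD, and the sign of every diet difference turns if the file names are right.

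An axoneme is a ring of doublet microtubules around a central pair. Dynein heavy chains are the motors, arranged as outer arms that set beat frequency and inner arms that shape the bend. Radial spokes carry signals from the central pair to the arms, and many Cfap proteins line the inside of the doublets, form the central apparatus or take part in assembly. In the testis the sperm tail is built by germ cells after meiosis, and many of its transcripts are made earlier, in meiotic prophase.

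The tables held 48939 barcodes and 429495465 UMIs (unique molecular identifiers, 1 per captured transcript), from 39196921 to 95845514 per library. Barcodes were placed in germ cell stages by marker genes that do not include any axonemal gene of the 57, and stage names mean cells like that stage by those markers (pachytene-like and so on). From 4 of 4 (elongating spermatids) to 5 of 8 (pachytene spermatocytes) of the markers of a stage had their highest level in it. The 7 stages held 9838 barcodes (20.1%), which carried 62.3% of all UMIs, and 455 of these were mixed, with markers of a class that is not a neighbour. Between 104 and 260 barcodes per library were gated as pachytene spermatocytes, where the median depth ran from 5978 UMIs in LFD replicate 3 to 42735.5 in HFD replicate 2. Within 10% of a threshold lay 721 stage barcodes (7.33%). Any 2 libraries shared between 12 and 28 barcode sequences. Levels are UMIs per 1000000 UMIs of the summed barcodes of a stage in a library (CPM). They count transcript ends and are not divided by gene length, so levels are compared for a gene across stages and not between genes.

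Droplets also capture free RNA. Macrophages, which build no flagellum, gave a level for free RNA, from 230 barcodes with 858454 UMIs. Spermatogonia stood above that level for 9 of 57 genes, early prophase spermatocytes for 21, pachytene for 47, late spermatocytes for 53, early round spermatids for 50, later round spermatids for 37 and elongating spermatids for 19. Values in spermatogonia and elongating spermatids were thus for most of these genes no higher than in macrophages. Barcodes differed in depth, with a median of 3473.5 UMIs in macrophages, 12446.5 in spermatogonia and 11192 in elongating spermatids. Prm1, a marker of elongating spermatids, was at 7317 CPM in macrophages and 1872 in spermatogonia. The gates kept spermatogonia only under 200 UMIs of elongating spermatid markers per 10000, and macrophages under 1000. The gates can thus make part of the Prm1 gap, which does not measure free RNA. The macrophage level need not be the background of these stages, and the part of free RNA in each was not tested. The macrophage markers summed to at most 47.2 CPM in any germ cell stage of any library, and Sertoli cell markers to 128 to 348 CPM in spermatogonia and early prophase spermatocytes and at most 78.3 CPM later. The part of Sertoli cell RNA in the early levels was not tested.

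Some promoters of these genes held a sequence feature that the choice of genes did not use. RFX transcription factors, which switch on ciliary genes in many tissues, bind an X-box made of half-sites such as GTTGCTANG and GTTGCCANG. RefSeq promoter windows on GRCm38.p6, covering 250 bases before and 50 bases from the annotated start, were at hand for 45 of the 57 genes (49 windows). Either form of the half-site, on either strand, lay in 21 of the 49 windows (42.9%) against 1286 of all 32851 windows (3.91%). The T form was in 28.6% of windows against 1.91% of all, and the C form in 16.3% against 2.13%. The forms differ in 1 letter, so no site counts for both.

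By gene, the half-site was found for 6 of 14 Dnah genes, 1 of 5 Rsph genes and 12 of 26 Cfap genes with a window. The 20 sites began at a median of 36.5 bases before the start, and 16 of them lay wholly within the last 100 bases before it. Other motifs searched in the same way were nearer to their general share. The cyclic AMP response element TGACGTCA was in 2.04% of these windows and 1.79% of all, and the forkhead motif TGTTTAC in 6.12% and 3.65%. The motifs were chosen after the windows had been looked at, windows of 1 gene can overlap, and the Dnah7 genes are copies of each other, so these shares are a description. A match shows letters and not binding.

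**Figure D1:**
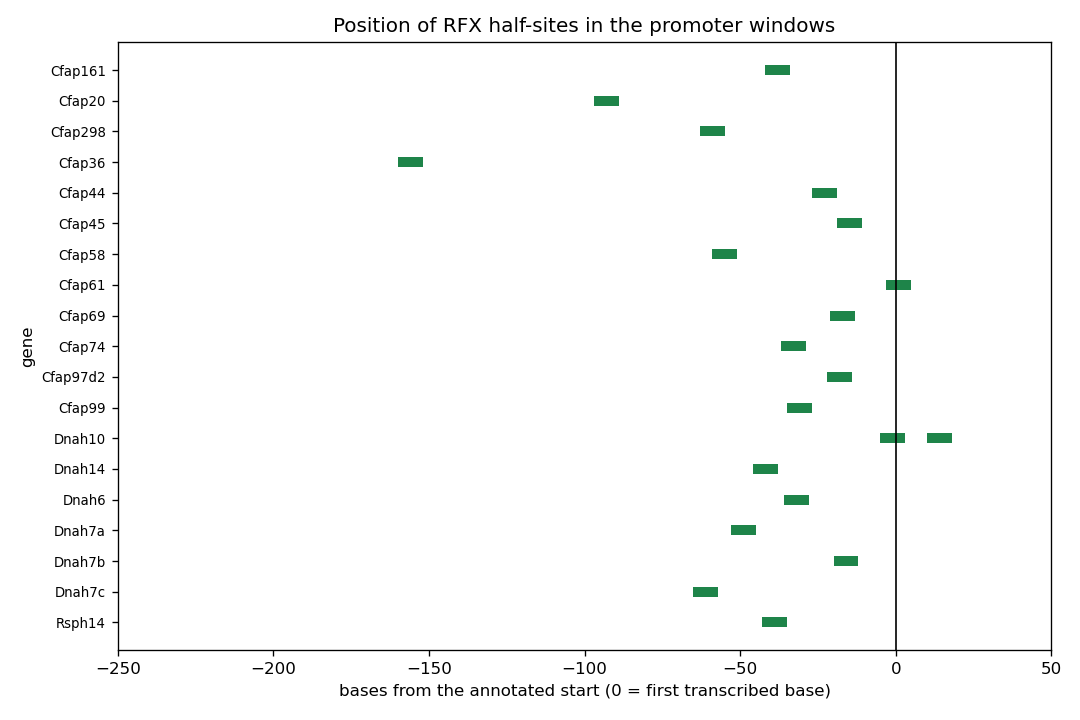
Position of each RFX half-site (green bar) in the promoter windows of the 19 genes that held one, on a horizontal axis in bases from the annotated start. Of 20 sites, 16 lay wholly in the last 100 bases before the start, and Cfap36 had the farthest, beginning 160 bases before it.

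The sites of 10 genes are given here, 9 of them of genes whose levels are described further on and Cfap44 for its sequence, each in the direction of its gene with 10 bases on either side. Capitals mark the half-site or its reverse complement. Those of Dnah7a (chr1:53706819-53706847, minus strand), Dnah7b (chr1:46066823-46066851, plus) and Dnah7c (chr1:46425443-46425471, plus) show how alike the copies are. Those of Cfap44 (chr16:44394762-44394790, plus) and Cfap45 (chr1:172521101-172521129, plus) hold the T form in the direction of the gene. Dnah14 (chr1:181576537-181576565, plus), Rsph14 (chr10:75032578-75032606, minus), Cfap36 (chr11:29247414-29247442, minus), Cfap161 (chr7:83794863-83794891, minus) and Cfap298 (chr16:90934894-90934922, minus) are of genes whose CPM was highest in pachytene spermatocytes (Dnah14), late spermatocytes (Cfap298) or early round spermatids (the others).
Dnah7a: cagtttgttgCTTAGCAACgaatcgacca
Dnah7b: cagtttgttgCTTAGCAACgaatcgacct
Dnah7c: cagtttgttgCTTAGCAACgaatcgacca
Cfap44: gcggagggacGTTGCTATGgcaaccgcag
Cfap45: tagttcttggGTTGCTATGgtaacgcgtc
Dnah14: agcgcctgccCCTAGCAACtgcggggctc
Rsph14: ctggcagtctCCTAGCAACcaggtcgcct
Cfap36: ctgctctcagCCTAGCAACtacgggccaa
Cfap161: gcctggtcgtCATGGCAACgaagcacgct
Cfap298: gactgttgccCCTGGCAACagccacttcc

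The first question was at which stage of sperm formation each gene had its highest level. Summed over a family by CPM, Dnah transcripts were highest in pachytene spermatocytes, at 2622 ± 236 CPM (SD, n = 6), and were down to 900 ± 94.7 in early round spermatids. Rsph transcripts stood at 3901 ± 331 CPM in pachytene and 3907 ± 151 in late spermatocytes, a difference within the spread, and at 2152 ± 157 in early round spermatids. Cfap transcripts were highest later, at 7054 ± 189 CPM in late spermatocytes and 7422 ± 179 in early round spermatids.

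Libraries differed less than stages. The lowest of the 6 pachytene sums of the Dnah genes, 2349 CPM, was above the highest late spermatocyte sum, 2219 CPM. For the Cfap genes the lowest early round sum, 7175 CPM, lay below the highest late spermatocyte sum, 7219 CPM, while pachytene sums reached no more than 5289 CPM. Rsph1 made up most of the Rsph sum, and the other 7 Rsph genes together went from 360 ± 54.6 CPM in pachytene to 638 ± 88.2 in late spermatocytes.

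**Figure D2:**
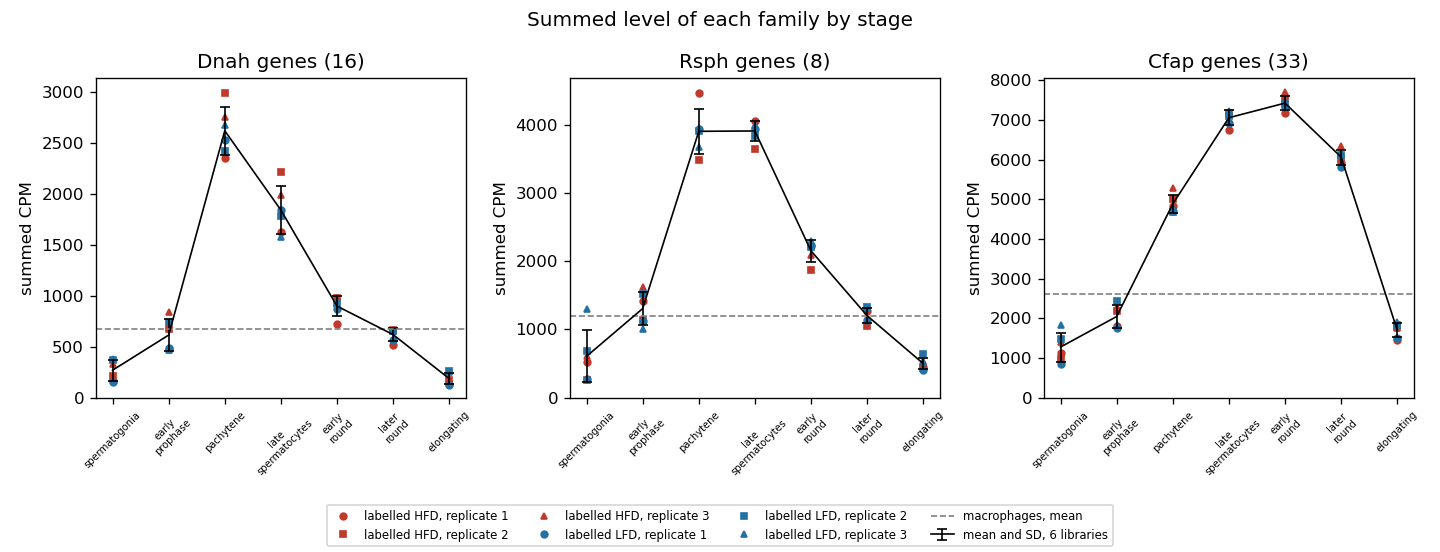
Summed CPM of the 16 Dnah, 8 Rsph and 33 Cfap genes (vertical axes) in the 7 germ cell stages, with 1 point per library, the mean and SD of 6 libraries in black and the macrophage mean as a dashed line. Dnah sums were highest in pachytene spermatocytes (2622 CPM), Rsph sums were alike in pachytene and late spermatocytes, and Cfap sums were highest in early round spermatids (7422 CPM).

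By gene, 19 of the 57 had their highest mean CPM in pachytene spermatocytes, 11 in late spermatocytes, 16 in early round, 7 in later round and 2 in elongating spermatids, and 2 rare transcripts in spermatogonia. The stage was the same in all 6 libraries for 39 genes. Of the 16 Dnah genes 9 were highest in pachytene, whereas 12 of the 33 Cfap genes were highest in early round spermatids. Scaling by TMM factors, which allow for the protamine and transition protein transcripts that fill elongating spermatids, left 42 genes at the same stage and put 9 rather than 2 in elongating spermatids. With the size factors of DESeq2 in edgeR 11 genes were highest in pachytene, 12 in late spermatocytes, 6 in early round, 15 in later round and 11 in elongating spermatids, the Cfap genes in early round spermatids numbered 5, and Rsph1 was highest in late spermatocytes. The counts of genes by stage therefore depend on the scale, as do the highest stages of some genes named below, which are given by CPM. The family sums above are in CPM too. The size factors of DESeq2 averaged 1.42 in pachytene, 1.17 in late spermatocytes, 1.06 in early round and 0.86 in later round spermatids. The order of stages in those sums can therefore shift with the scale.

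**Figure D3:**
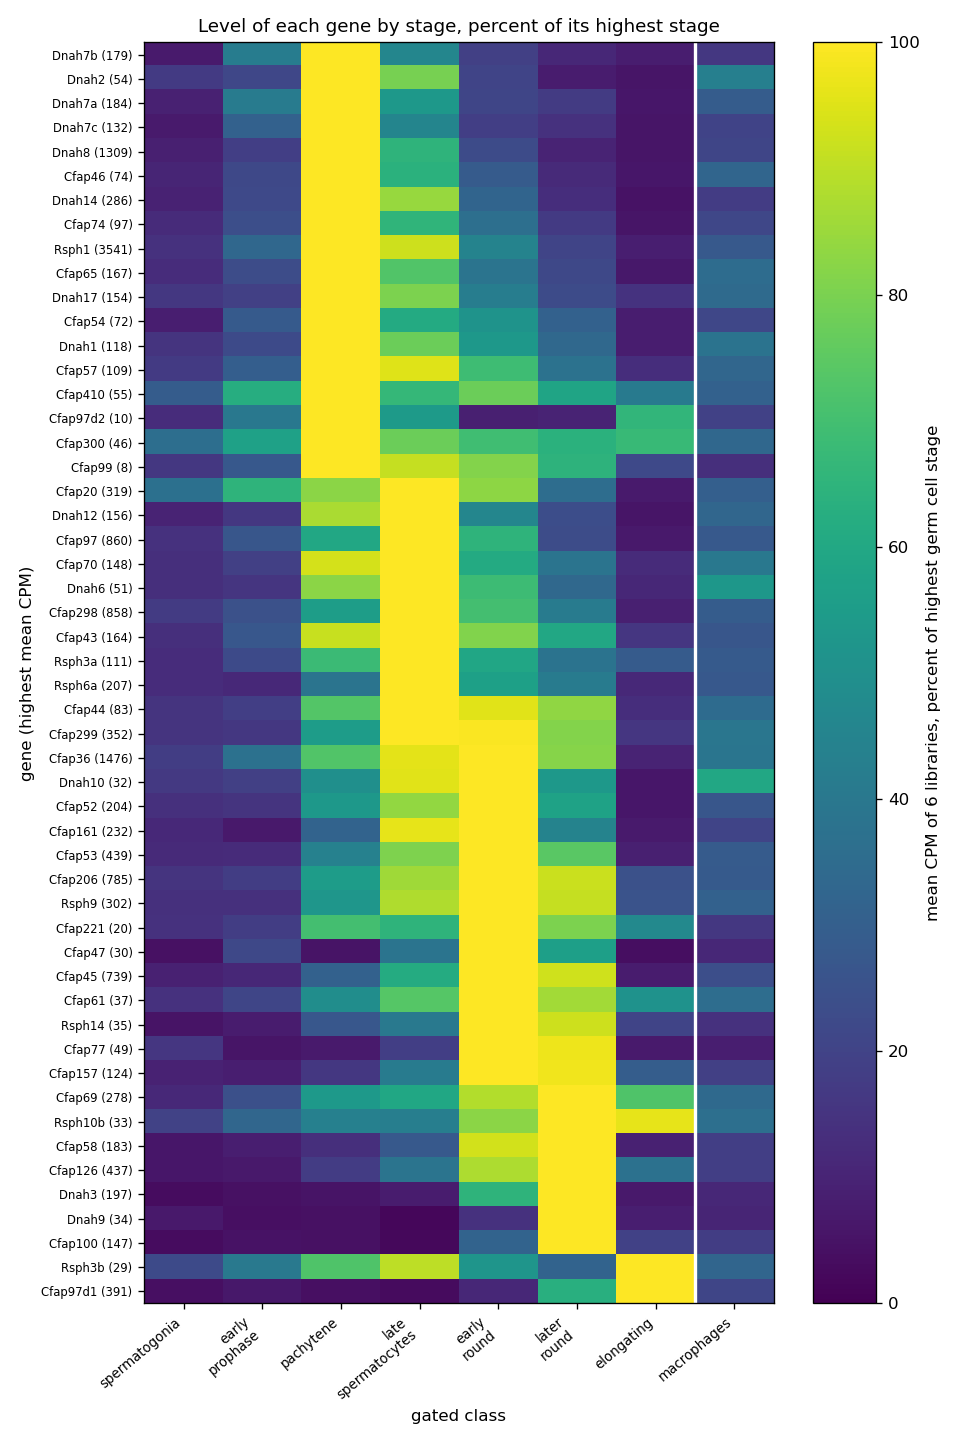
Mean CPM of 6 libraries for the 52 genes with at least 1000 UMIs in all, as a percent of the gene's highest germ cell stage, which is given in parentheses in CPM. Rows are ordered by that stage, from Dnah7b (179 CPM in pachytene) to Cfap97d1 (391 CPM in elongating spermatids), with the macrophage level in the last column.

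The outer arm heavy chains differed in which member of a pair was present. Dnah8, at chr17:30624354-30877365, encodes a heavy chain of the sperm outer arm, and it had 1198, 1487 and 1375 CPM in pachytene spermatocytes of the libraries labelled HFD and 1302, 1199 and 1294 CPM in those labelled LFD. In early prophase the same libraries had 174 to 335 CPM, so no early prophase value came near a pachytene one. The level then went down through late spermatocytes (851 ± 105 CPM, n = 6), early round spermatids (297 ± 35.9) and later round spermatids (128 ± 20.2). Macrophages stood at 271 CPM for Dnah8. Its early prophase and early round levels were thus near the macrophage level, and its later round level was under it. Dnah17, its partner in the sperm outer arm, at chr11:118021723-118130634, followed the same course. It had 154 ± 8.31 CPM in pachytene, 123 ± 8.04 in late spermatocytes and 65.5 ± 4.2 in early round spermatids, against 59.4 CPM in macrophages.

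Dnah5, Dnah9 and Dnah11 are the outer arm heavy chains of airway and other motile cilia. Dnah5 did not exceed a mean of 3.17 CPM in any germ cell stage, and Dnah11 not 0.755 CPM, with 80 UMIs in the whole data. Dnah9, at chr11:65831282-66168551, stayed between 0.1 and 1.27 CPM in late spermatocytes and then had 32.9, 39 and 37.7 CPM in later round spermatids labelled HFD and 37.1, 31.4 and 28.6 CPM in those labelled LFD. All 6 later round values lay above all values in the other germ cell stages, of which the highest was 7.58 CPM. Dnah9 rose by 2.99 on the log2 scale between early and later round spermatids (SE 0.16, adjusted p = 9.94e-23 by edgeR's quasi-likelihood test with Benjamini-Hochberg adjustment over all genes).

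Among inner arm heavy chains, several were highest in pachytene by CPM, whereas Dnah3, Dnah6, Dnah10 and Dnah12 were not. Dnah14, the second Dnah gene by UMIs, had 286 ± 43.8 CPM in pachytene, Dnah1 had 118 ± 6.19 and Dnah2 had 53.7 ± 3.97, while Dnah6 was highest in late spermatocytes (50.7 ± 4.7). Dnah12 had 136 ± 25.2 CPM in pachytene and 156 ± 42.1 in late spermatocytes, within the spread. Dnah3, at chr7:119922671-120095280, had no more than 25.4 CPM in any library up to late spermatocytes, where macrophages stood at 23.3 CPM. It then had 108, 152 and 138 CPM in early round spermatids labelled HFD and 115, 138 and 121 CPM in those labelled LFD. Later round spermatids had 155 to 230 CPM, and elongating spermatids 10.1 to 22, under the macrophage level. Dnah10, the partner of Dnah2 in a double-headed inner arm, was highest in early round spermatids at 31.7 ± 4.01 CPM, against 21 CPM in macrophages.

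Dnah7a, Dnah7b and Dnah7c are copies of an inner arm heavy chain gene on chromosome 1, with Dnah7b and Dnah7c side by side and Dnah7a apart from them. They reached 184 ± 12.1, 179 ± 30.9 and 132 ± 23 CPM in pachytene spermatocytes and had the largest of the rises at the first step tested. Of the 50-base runs in the last 1000 bases of the longest transcript, 24.2% to 38.5% were shared exactly between pairs of copies. A read wholly inside such a run cannot be placed in 1 copy by its sequence. Rsph3a and Rsph3b shared 87.6% of such runs. Whether such reads were left out of the counts or given to 1 of the copies was not tested. For Rsph4a with Rsph6a, Dnah5 with Dnah8 and Dnah9 with Dnah17 the share was 0.

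Among radial spoke genes, Rsph1, at chr17:31255019-31277383, encodes a protein of the spoke head and had the most UMIs of the 57 genes, 762295 in all. In pachytene spermatocytes it had 4031, 3196 and 3625 CPM in the libraries labelled HFD and 3584, 3556 and 3254 CPM in those labelled LFD. The groups overlapped, and every pachytene value was above every early prophase value, which ran from 881 to 1501 CPM. Macrophages, with libraries pooled, stood at 1001 CPM, so the early prophase values were around the macrophage level. In spermatogonia LFD replicate 3 stood apart at 1092 CPM, near its own macrophage value of 1167, where the other libraries had 210 to 567 CPM.

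The spoke head paralogues Rsph6a and Rsph4a, of which Rsph6a is known from sperm and Rsph4a from airway cilia, were far apart. Rsph6a reached 207 ± 17.4 CPM in late spermatocytes. Rsph4a had 138 UMIs in the whole data and a mean of at most 2.53 CPM, in spermatogonia. Rsph9, another head protein, stood at 302 ± 36 CPM in early round spermatids and at 276 ± 32.5 in later round spermatids, within the spread. Rsph14 was highest in early round spermatids (34.6 ± 2.17 CPM), and Rsph3a stood at 75.8 ± 23.4 in pachytene and 111 ± 39.3 in late spermatocytes. By CPM Rsph10b was alike in later round (32.7 ± 1.62) and elongating spermatids (31.5 ± 1.13). By TMM and by the size factors of DESeq2 Rsph10b was highest in elongating spermatids.

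Of the Cfap genes, Cfap36, whose protein binds the ciliary GTPase Arl3, had the most UMIs. It had 1414 ± 74.6 CPM in late spermatocytes, 1476 ± 66.3 in early round and 1209 ± 82.6 in later round spermatids before 144 ± 39 in elongating spermatids, against 595 CPM in macrophages. Cfap206, a protein at the spoke base, had 785 ± 32.8 CPM in early round spermatids. Cfap45 and Cfap53, which line the inside of the doublets, had their highest CPM at the same stage, with 739 ± 54.4 and 439 ± 38.9 CPM. By TMM and by the size factors of DESeq2, Cfap206 and Cfap45 were highest in later round spermatids, while Cfap53 stayed in early round. Cfap36 moved to later round spermatids with the size factors of DESeq2 only. Cfap298, which acts in dynein arm assembly, and Cfap97, needed for flagella, were highest in late spermatocytes at 858 ± 27.9 and 860 ± 110 CPM.

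Some genes had their main levels after meiosis. Cfap97d1, at chr11:101984279-101992264 and known from sperm tail formation, had 365, 455 and 371 CPM in elongating spermatids labelled HFD and 380, 313 and 458 CPM in those labelled LFD, with 208 to 288 CPM in later round and at most 49.6 CPM in early round spermatids or before. The groups overlapped and the stages did not. Cfap100, a regulator of inner arms, had 3.27 ± 1.33 CPM in late spermatocytes, 46.6 ± 4.97 in early round and 147 ± 10.2 in later round spermatids, and Cfap77, a doublet protein, had 9.14 ± 4.01, 49.3 ± 3.09 and 48 ± 2.62.

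**Figure D4:**
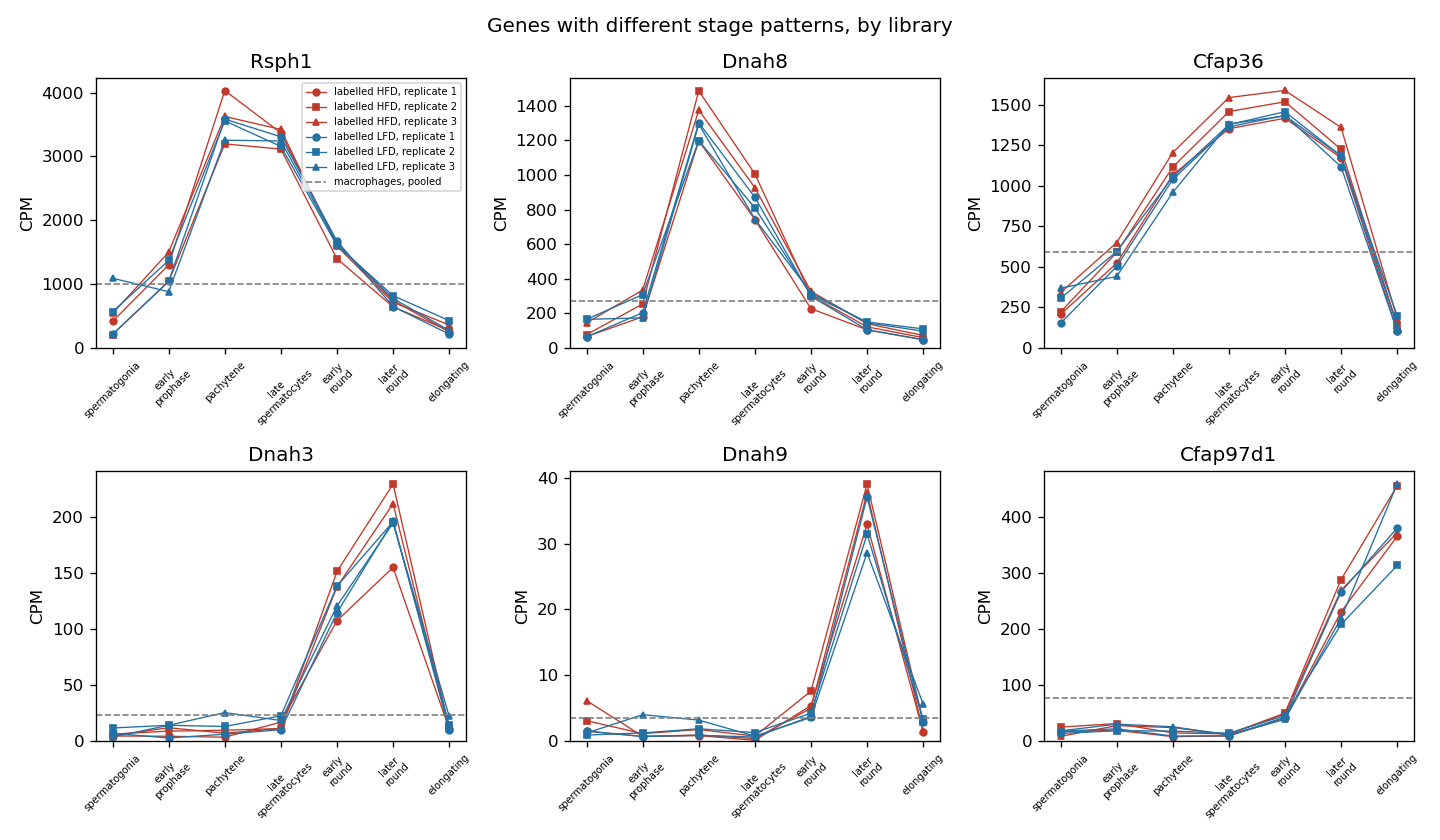
CPM of Rsph1, Dnah8, Cfap36, Dnah3, Dnah9 and Cfap97d1 (vertical axes from 0) in 7 germ cell stages, with 1 line per library, red for the label HFD and blue for LFD, and the pooled macrophage level as a dashed line. Rsph1 and Dnah8 were highest in pachytene, Dnah3 and Dnah9 in later round spermatids and Cfap97d1 in elongating spermatids in each of the 6 libraries.

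Each stage was then set against the next with library as a term, over 17028 genes of which 55 were among the 57. Dnah11 and Dnah2os were too low to test. A gene is said to rise or fall where the adjusted p was under 0.05. From spermatogonia to early prophase spermatocytes 34 genes rose and 3 fell, where 51.9% of all genes were called, 27% rising and 24.9% falling. With the size factors of DESeq2 in edgeR 24 rose and 3 fell, 27 of 55 in either direction, where 8696 of 17028 genes were called. The share of called genes was then near that of all genes. Dnah7b rose most, by 2.80 (log2, SE 0.20, adjusted p = 9.42e-17), from 6.88 to 20.4 CPM in spermatogonia to 51.3 to 116 CPM in early prophase, with no overlap. Dnah7c rose by 2.41 and Dnah7a by 2.38. Cfap161, a doublet protein, fell by 0.49 (SE 0.21, adjusted p = 0.0428). That call was lost with mixed barcodes left out (-0.15) and without HFD replicate 1 (-0.30), HFD replicate 3 (-0.49) or LFD replicate 3 (-0.25). The other genes that fell, Rsph4a and Cfap77, were under 10 CPM.

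Entry into pachytene was the step with most rises. Of the 55 genes 47 rose and 1 fell, while 66% of all genes were called, 32.1% rising and 34% falling, and the median change was 1.91 on the log2 scale against -0.06 over all genes. All 8 Rsph genes rose, as did 11 of 14 Dnah and 28 of 33 Cfap genes. Dnah8 rose by 2.79 (SE 0.16, adjusted p = 1.28e-21), Dnah6 by 2.74 (SE 0.17) and Dnah12 by 2.73 (SE 0.14).

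The gene that fell at this step was Cfap47, a central apparatus protein and the only one of the 57 on chromosome X. It fell by 1.96 (SE 0.39, adjusted p = 1.78e-05), from 2.1 to 10.7 CPM in early prophase to 0.203 to 3.17 CPM in pachytene. It then rose by 3.06 (SE 0.28, adjusted p = 4.44e-14) to late spermatocytes, where it had 7.54 to 18.3 CPM. The late spermatocyte values lay above all pachytene values, and Cfap47 was named at the falling step after its values were seen.

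From pachytene to late spermatocytes 26 genes rose and 16 fell (27.8% and 38.7% of all genes, 66.5% in either direction). Of the 14 Dnah genes 3 rose and 6 fell, with a median of -0.29 near the -0.22 of all genes, and of the 33 Cfap genes 18 rose and 9 fell, with a median of 0.46. The difference between the families was not tested. Cfap161 rose by 1.65 (SE 0.11) and Cfap157, a basal body protein, by 1.43 (SE 0.11), while Dnah7b fell by 1.06 (SE 0.12), Dnah7c by 1.06 (SE 0.11) and Dnah7a by 0.84 (SE 0.11). With the size factors of DESeq2 in edgeR the split was 32 rising to 10 falling, and no gene called under TMM changed its sign.

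From late spermatocytes to early round spermatids, the step across the meiotic divisions, 21 genes rose and 22 fell (31.5% and 31.3% of all genes, 62.8% in either direction). Of the Dnah genes 10 of 14 fell and 3 rose, and of the Cfap genes 8 fell and 15 rose. Cfap100 rose by 4.07 (SE 0.18, adjusted p = 9.66e-26), Dnah3 by 3.25 (SE 0.17) and Cfap77 by 2.64 (SE 0.14). Dnah2 fell by 1.86 (SE 0.14, adjusted p = 6.64e-17), Dnah8 by 1.40 (SE 0.15) and Dnah14 by 1.26 (SE 0.11).

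From early to later round spermatids 8 genes rose and 26 fell (27% and 27.2% of all genes, 54.2% in either direction). After Dnah9 the largest rises were those of Cfap97d1, by 2.67 (SE 0.14), and Cfap100, by 1.85 (SE 0.13). Cfap97 fell by 1.31 (SE 0.11), Dnah2 by 1.31 (SE 0.17) and Dnah14 by 1.13 (SE 0.12).

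From later round to elongating spermatids 12 genes rose and 36 fell (36.7% and 33.8% of all genes, 70.5% in either direction). Dnah3 fell by 2.92 (SE 0.17, adjusted p = 4.23e-21), Cfap47 by 2.91 (SE 0.28) and Cfap77 by 2.84 (SE 0.17). Rsph3b rose most, by 2.75 (SE 0.15, adjusted p = 1.12e-22), from 7.1 to 12.9 CPM to 23.5 to 33.6 CPM with no overlap, followed by Cfap97d1, by 1.66 (SE 0.13), and Cfap300, an assembly factor, by 1.09 (SE 0.10). Near its transcript end Rsph3b shares 87.6% of 50-base runs with its copy Rsph3a, and how reads there were counted was not tested. This step depends on the scale, since with library size alone 3 genes rose and 49 fell, and 8 called genes changed sign (Cfap410, Cfap61, Cfap69, Dnah17, Dnah2, Dnah7b, Rsph10b and Rsph3a). The median of all genes moved from 0.11 to -0.88 between these scalings. Rsph3b and Cfap97d1 rose under each scaling, by 1.73 and 0.66 with library size alone, where Cfap300 was at 0.07.

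Other genes of the axoneme, its assembly and its regulators were followed through 79 genes in 7 lists, of which 77 were tested. The lists include the 11 transcription factors described further on. From early prophase to pachytene, where 32.1% of all genes rose, 64 rose and 6 fell, with all 13 dynein assembly factors and all 5 further inner arm subunits among the risers, along with 9 of 10 central pair genes. Of the transcription factors 4 rose and 4 fell at this step. From pachytene to late spermatocytes 52 rose and 7 fell (27.8% and 38.7% of all genes), 5 and 2 of them transcription factors. From late spermatocytes to early round spermatids 44 rose and 15 fell (31.5% and 31.3%), 8 and 0 of them transcription factors. In the latter step 14 of 17 doublet inner and tektin genes rose (median 0.61) where 10 of 14 Dnah genes fell. All 11 genes of the nexin-dynein regulatory complex and its rulers fell from later round to elongating spermatids, where 33.8% of all genes fell.

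Transcription factors of ciliated and spermiogenic cells, 11 in the list, moved at different times. Rfx2, an X-box factor needed for sperm tails, had 37.6 ± 11.9 CPM in early prophase, 110 ± 4.43 in pachytene and 108 ± 6.09 in late spermatocytes, then 56.6 ± 2.3 in later round spermatids. Rfx1 and Rfx3 were low in pachytene, at 4.1 ± 2.37 and 5.37 ± 1.79 CPM, and higher in later round spermatids, at 53.9 ± 6.43 and 20.4 ± 2.99. Rfx4 was at 45.3 ± 4.4 CPM in pachytene and 62.1 ± 3.19 in later round spermatids. Foxj1, the main regulator of motile cilia, was at 99.8 ± 8.64 CPM in early round spermatids against 32.6 CPM in macrophages, and Crem, a spermatid activator, at 639 ± 23.8 in later round spermatids. Sox30 reached 144 ± 7.69 CPM and Tulp2 1274 ± 97.1 in later round spermatids, while Taf7l was highest before pachytene, at 418 ± 63.9 CPM in early prophase. Gmnc and Mcidas, which start multiciliated cells, had 141 and 9 UMIs in the whole data.

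The diet labels ask whether testis transcripts differ after 2 weeks of high-fat diet, 1 check within a study of paternal diet and sperm RNA. With all 6 libraries and no replicate block, none of the 57 genes passed the test between the diet labels. With the replicate number as a block, 2 of 52 tested in pachytene spermatocytes did, Cfap100 (-1.11, adjusted p = 0.016) and Dnah3 (-1.08, adjusted p = 0.0042), where 227 of 13047 genes were called. Whether the numbers pair the libraries was not tested. Dnah3 stood at 10.7 ± 7.89 CPM in pachytene, under its macrophage level of 23.3 CPM. In the whole testis 56 were tested and 0 were called (0% of 20727 genes were called), with 0 at an unadjusted p under 0.05 (471 over all genes). Log2 differences, labelled HFD minus labelled LFD, ran from -0.54 to 0.29 around a median of -0.01. The median standard error was 0.18, and 55 of 56 genes differed by less than 0.5. DESeq2 also called 0, again with 0 at an unadjusted p under 0.05 (444 of 28383 over all genes). Each library was made from a separate mouse, as far as the methods say. In bulk sums fewer cells of a type and less RNA per cell cannot be told apart.

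The genes with the least p over all barcodes did not pass the test. Cfap45 had 355, 354 and 397 CPM in the libraries labelled HFD and 388, 448 and 531 CPM in those labelled LFD, with an overlap and a log2 difference of -0.24 (SE 0.14, adjusted p = 0.986). Cfap300 had 31.9, 36.4 and 33.2 CPM against 31.5, 28.4 and 30.7 CPM, groups that did not overlap, and 0.22 (SE 0.14, adjusted p = 0.986). Cfap73, a rare transcript, had 1.04, 0.877 and 0.994 CPM against 0.948, 1.59 and 1.96 CPM, which overlapped, and its log2 difference of -0.54 (SE 0.28, adjusted p = 0.986) was the lowest of the 56.

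Within stages, again 0 genes were called in each of the 7 (0% of all genes were called in 6 stages and 0.0101% in early prophase, with 1 gene). At an unadjusted p under 0.05 there were 0 of 34 in spermatogonia, 2 of 45 in early prophase, 1 of 52 in pachytene, 5 of 52 in late spermatocytes, 4 of 53 in early round, 2 of 53 in later round and 7 of 49 in elongating spermatids. Over all genes the numbers were, in the same order, 191 of 9610, 570 of 9945, 512 of 12478, 923 of 12130, 660 of 11434, 421 of 13549 and 232 of 9799. DESeq2 called 0 in each stage too, with 0, 2, 4, 5, 2, 2 and 4 genes at an unadjusted p under 0.05 in the same order. Over all genes DESeq2 had 105 of 20966, 321 of 21190, 535 of 22859, 790 of 22786, 370 of 22272, 294 of 24329 and 164 of 22842. Dnah7b in early prophase had 67.8, 93.7 and 116 CPM in the libraries labelled HFD and 51.3, 67.7 and 53.9 CPM in those labelled LFD. The groups just missed each other, and the difference of 0.68 (SE 0.20) had an adjusted p of 0.87. Dnah7a, with which it shares sequence, had 75.4, 89.3 and 107 against 68.4, 64 and 53.9 CPM.

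The leading genes of the other stages were Cfap65 in spermatogonia (-1.02, SE 0.47), Dnah12 in pachytene (0.31, SE 0.13), Cfap45 in late spermatocytes (-0.27, SE 0.11), Dnah2 in early round (-0.45, SE 0.19), Cfap410 in later round (-0.33, SE 0.13) and Dnah9 in elongating spermatids (-1.10, SE 0.40), with adjusted p from 0.593 to 1. Cfap45 had 448, 398 and 387 CPM against 457, 499 and 544 CPM, and Cfap410 had 32.9, 26.9 and 26.1 CPM against 35, 38 and 33.9 CPM, both with no overlap. Dnah9 had 1.33, 2.94 and 1.44 CPM against 2.87, 3.28 and 5.57 CPM, and it overlapped between the labels, as did Cfap65, Dnah12 and Dnah2. Means of Cfap65 (14.9 CPM labelled HFD, 27.3 labelled LFD) and Dnah2 (9.48 and 12.8) were under their macrophage levels of 65.2 and 23.3 CPM. Dnah9 was near its macrophage level of 3.49 CPM, while Dnah12, Cfap45 and Cfap410 were above theirs. The part of free RNA in these differences was not tested. The test of whether the step from pachytene to early round spermatids differed between the diet labels called 0 of 54 genes (0% of all genes). At an unadjusted p under 0.05 it had 3 of the 54, and 634 of 14062 over all genes.

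By haemoglobin transcripts the libraries numbered 1 stood apart from the other 4. Haemoglobin transcripts were at 0.0209 CPM in HFD replicate 1 and 0 in LFD replicate 1, and from 30.5 to 99.7 CPM in the others. Within the pair numbered 1 the difference of Dnah7b in early prophase was 0.40 on the log2 scale, and within the other 4 libraries 0.78. That of Dnah12 in pachytene was -0.01 and 0.49, that of Cfap45 in late spermatocytes -0.03 and -0.41, and that of Cfap410 in later round spermatids -0.09 and -0.43. For Dnah12, Cfap45 and Cfap410 most of the difference lay in the 4 libraries numbered 2 and 3. Cfap65 in spermatogonia had -0.35 and -1.07, and Dnah2 in early round and Dnah9 in elongating spermatids differed about as much within both sets (-0.49 and -0.38 for Dnah2, -0.88 and -0.89 for Dnah9).

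Leaving out HFD replicate 1 brought calls in 3 stages. In late spermatocytes 3 of the genes then had higher and 4 had lower levels under the label HFD (2.76% and 5.26% of all genes, 8.02% together), in early round spermatids 2 and 6 (2.08% and 6.97%, 9.04% together), and in later round spermatids 1 and 3 (0.726% and 4.07%, 4.8% together). The whole testis and the other stages had 0, where 0.0095% of all genes were called in the whole testis, all of them lower, and 0% in those stages. Rsph9 was lower in each of these, by -0.37 (SE 0.08, adjusted p = 0.027) in late spermatocytes, -0.38 (SE 0.08, adjusted p = 0.0084) in early round and -0.37 (SE 0.08, adjusted p = 0.0243) in later round spermatids. In late spermatocytes it had 301, 215 and 227 CPM in the libraries labelled HFD and 281, 284 and 287 CPM in those labelled LFD, so HFD replicate 1 was the highest of all 6 and the other 2 the lowest. Dnah12 was higher by 0.59 (SE 0.12) in late spermatocytes and 0.40 (SE 0.09) in early round spermatids, with 121, 227 and 183 against 142, 146 and 115 CPM in the former.

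These calls moved with base composition. The 9 genes that were lower had transcripts of 49.8% to 59.6% GC and the 4 that were higher 37.6% to 45.1%, where the median of the 57 was 48.6%. Over 7014 genes in late spermatocytes, the deviation of a library from the gene's mean followed GC with Spearman's rho of -0.52 in HFD replicate 2 and -0.40 in HFD replicate 3, and of 0.47, 0.41, 0.24 and 0.26 in HFD replicate 1 and LFD replicates 1, 2 and 3. These are correlations across genes in libraries that share their genes, given as a description. The part of GC in the calls was not tested.

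**Figure D5:**
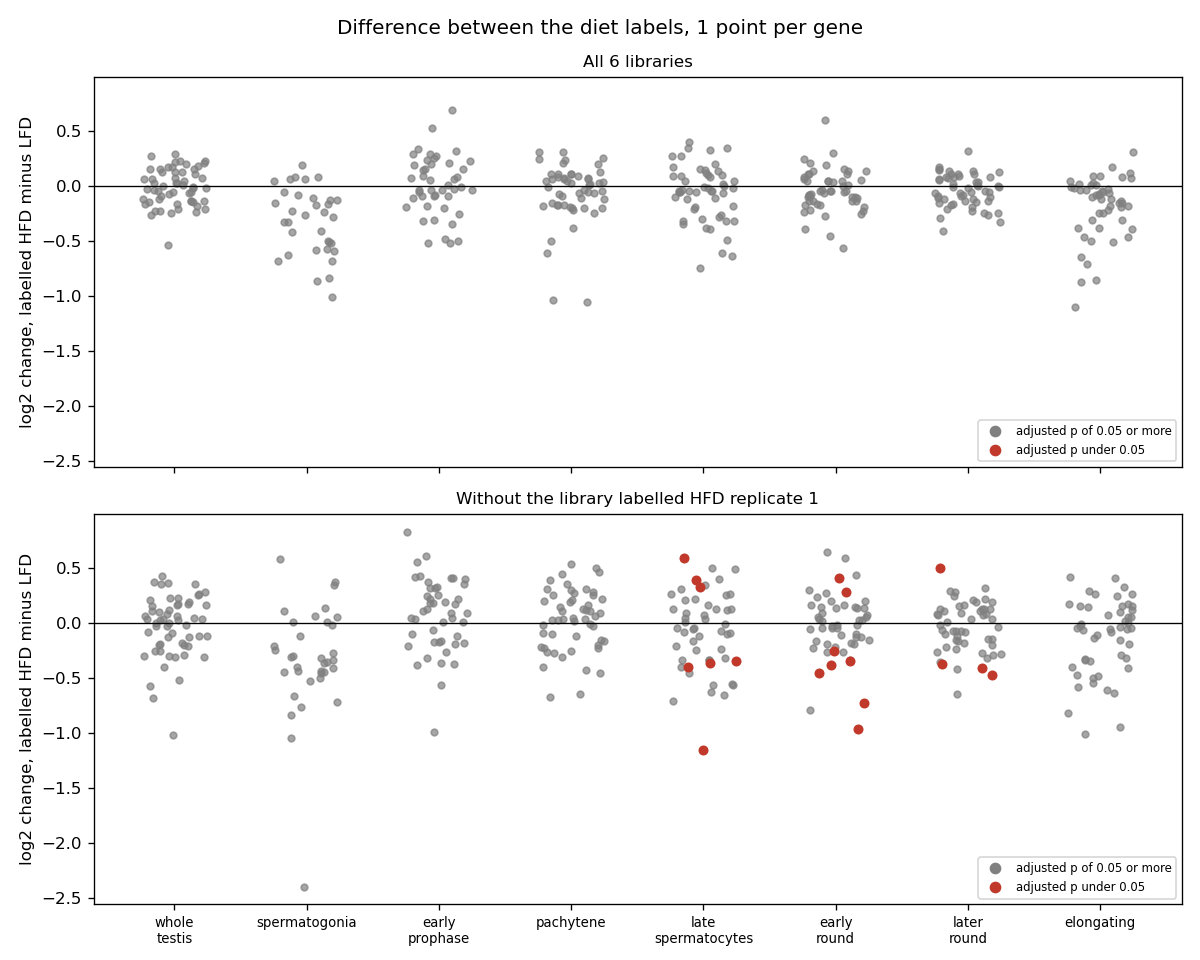
Log2 difference, labelled HFD minus labelled LFD, of each tested gene in the whole testis and 7 stages, with all 6 libraries (upper) and without HFD replicate 1 (lower); red points passed an adjusted p of 0.05 in edgeR. With all 6 libraries 0 genes passed, and without HFD replicate 1 there were 7 in late spermatocytes, 8 in early round and 4 in later round spermatids.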

How the data were processed

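Cell Ranger 6.0.1 was used by the authors with mm10, and the deposited tables hold raw counts of UMIs per gene and barcode, filtered by the authors to called cells. The kit is given as version 2 in the labels and as another version in the methods. Barcodes were kept at 1000 UMIs or more and gated by the share of marker UMIs, no doublet caller was run, and mixed barcodes were kept. Counts were summed per library and stage. edgeR 4.0.16 (quasi-likelihood test, TMM, default filter, R 4.3.3) tested neighbouring stages with library as a term and the diet labels without covariates, with Benjamini-Hochberg adjustment over all genes. The code was first tested on simulated data.

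The genes, lists and tests were chosen with earlier results of these data known. Named were the 6 highest genes of each family, the 3 largest rises and falls per step among called genes of at least 10 CPM, the outer arm, Dnah7, Rsph3 and Rsph4a/Rsph6a sets, and the genes of smallest p by diet. SDs are over the 6 libraries, which held 39196921 to 95845514 UMIs each. Alternatives were DESeq2 1.42.0, other scalings, filters and depths, mixed barcodes left out, a batch term, a replicate block and each library left out.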

Additional observations from a re-analysis of the deposited data

How the results depend on the processing

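The 6 counts of genes that rose or fell between stages stayed within 1.5 times of their value under each alternative. With each library left out in turn they ran from 29 to 40 for spermatogonia to early prophase, 48 to 50 to pachytene, 40 to 43 to late spermatocytes, 42 to 43 to early round, 32 to 35 to later round and 44 to 48 to elongating spermatids. No change named by the rule for steps or diet changed its sign under any alternative run for it. Library size alone, as a scale, was added after the data had been seen. By diet the count stayed at 0 in the whole testis, spermatogonia, early prophase, pachytene and elongating spermatids with any library left out, and ran from 0 to 7 in late spermatocytes, 0 to 8 in early round and 0 to 4 in later round spermatids, the upper values without HFD replicate 1. The interaction count was 0 with any library left out and 2 of 57 with no filter on low counts (244 of 24570 over all genes), and the cause was not tested. With the replicate number as a block the count was 2 of 52 in pachytene (Cfap100 and Dnah3, both lower), where 227 of 13047 genes were called, and 0 in the other sums. In the whole testis same-numbered libraries correlated at 0.49, 0.03 and 0.26, and libraries of unlike number at -0.41 to 0.30. In pachytene these were 0.46, 0.05 and 0.43 against -0.53 to 0.07. In late spermatocytes they were -0.29, 0.11 and -0.10 against -0.22 to 0.27. Whether the numbers pair the samples was not tested. DESeq2 and a batch term for the libraries numbered 1 called 0 in each diet comparison of the whole testis and the 7 stages. Depth limits the rare genes most: Dnah9 rested on 26 UMIs in late spermatocytes and Dnah11 on 80 in all.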

Other observations

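Barcodes that passed no gate carried the axonemal genes at about the level of the whole testis. Their 57 genes summed to 8576 ± 1032 CPM (SD, n = 6) against 8461 ± 853 in all barcodes, and all 57 were above the macrophage level. Among somatic classes, Sertoli cells were above the macrophage level for 12 of 57 genes and the Leydig, peritubular and stromal class for 9.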
